A study of Mus musculus with 12 samples.

Results

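The integrated stress response and the unfolded protein response were followed through 10 genes in the mouse hippocampus after a seizure. The genes were Atf4, Atf5, Ddit3, Trib3, Asns, Sesn2, Ppp1r15a, Xbp1, Hspa5 and Herpud1, taken by the gene symbol that the probe annotation gives each probe set. All 10 were on the array, with 17 probe sets among 45037, and all 10 were among the 13853 genes tested.

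RNA of the hippocampus ipsilateral to an amygdala injection was hybridised to 12 Affymetrix MG-430 PM strips, 3 for each of 4 groups. In the KA groups, sampled at 8 h or at 14 d, mice received 0.3 µg of kainic acid (KA), which activates kainate-type glutamate receptors and sets off prolonged seizures, in 0.2 µl of vehicle. Lorazepam, a benzodiazepine that dampens seizures, was injected into their abdomen at 6 mg/kg, 40 min after KA. Non-seizure controls at 8 h and at 14 d had 0.2 µl of vehicle injected at the same site, and whether they had lorazepam is not stated in the labels. Strain, age and sex are not given in the sources used here. Nor is it stated whether each array is 1 animal, and the p-values therefore cover the spread between arrays, which may be technical.

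The integrated stress response starts when kinases phosphorylate the initiation factor eIF2. Most protein synthesis then slows, while the mRNA of the transcription factor Atf4 is translated more, and its targets supply amino acids, transporters and feedback regulators. The unfolded protein response starts in the endoplasmic reticulum (ER) from the sensors Perk, Ire1 and Atf6, of which Perk phosphorylates eIF2, Ire1 splices the mRNA of Xbp1, and Atf6 with spliced Xbp1 raises ER chaperones such as Hspa5. Both responses have been described in brain tissue after seizures. The arrays measure mRNA only, so neither translation of Atf4 nor phosphorylation of eIF2 was observed, and the splice form of Xbp1 that each probe set reads was not analysed here.

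The letters of known response elements are found in the promoters of several of the genes. The windows searched run from 250 bases before to 50 bases after the RefSeq gene start (GRCm38.p6). The motifs were searched on both strands in 32851 promoters. They are the C/EBP-ATF response element (CARE, TGATGNAA), the ER stress response element (ERSE, CCAAT and CCACG with 9 bases between them), its second form (ERSE-II, ATTGG and CCACG with 1 base between them), the unfolded protein response element (UPRE, TGACGTGG) and the cAMP response element (CRE, TGACGTCA). CARE was present in 3.97% of all promoters, ERSE in 0.119%, ERSE-II in 0.0365%, UPRE in 0.676% and CRE in 1.79%. Among the 10 genes, CARE was found in 3, ERSE in 1, ERSE-II in 1 and CRE in 1. The sequences shown are the 150 bases before the start, 5′ to 3′ on the strand of the gene, for the 4 genes that hold a match there, with the matches in capitals.
Hspa5: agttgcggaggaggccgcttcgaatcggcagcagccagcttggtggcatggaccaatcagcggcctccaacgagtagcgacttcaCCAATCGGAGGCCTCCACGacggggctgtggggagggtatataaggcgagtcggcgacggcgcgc
Herpud1: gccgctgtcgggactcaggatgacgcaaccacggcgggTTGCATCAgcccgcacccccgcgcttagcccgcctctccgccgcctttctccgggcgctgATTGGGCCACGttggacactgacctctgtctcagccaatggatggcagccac
Asns: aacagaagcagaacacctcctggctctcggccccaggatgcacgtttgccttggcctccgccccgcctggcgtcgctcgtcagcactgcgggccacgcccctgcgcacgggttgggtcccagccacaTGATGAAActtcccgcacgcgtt
Ppp1r15a: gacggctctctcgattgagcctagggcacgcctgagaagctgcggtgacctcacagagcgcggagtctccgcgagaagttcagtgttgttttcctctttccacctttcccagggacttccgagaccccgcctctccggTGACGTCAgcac
The Hspa5 window (chr2:34771940-34772089, plus strand) holds an ERSE. The Herpud1 window (chr8:94386279-94386428, plus strand) holds an ERSE-II and, before it, a CARE on the opposite strand. The Asns window (chr6:7693210-7693359, minus strand) holds a CARE, and the Ppp1r15a window (chr7:45526269-45526418, minus strand) a CRE. The CARE of Trib3 lies beyond the start, outside the 150 bases shown for the other genes. These letters were not found in the windows of Atf4, Atf5, Ddit3, Sesn2 and Xbp1. A match is a description of letters, and binding was not measured.

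Values are log2 intensities. The groups at 8 h differed beside KA in sex-linked genes and in a field of the labels. Xist, transcribed from the inactive X chromosome, was at 7.39 to 8.71 in KA hippocampi, against 4.34 to 4.61 in controls at 8 h, and the Y-linked Eif2s3y was at 5.57 to 6.83 in KA hippocampi against 7.46 to 7.96 in controls. Kdm5d, also on the Y chromosome, was at 5.07 to 6.10 in KA hippocampi against 6.57 to 6.84 in controls at 8 h. All 3 KA arrays at 8 h held Xist and both of these Y-linked genes above background. In the 8 h controls Xist exceeded background on 2 of 3 arrays. Whether an array holds RNA of more than 1 animal was not tested. For the arrays titled as 8 h, the labels hold another time field with 11 to 13 h for the KA arrays and 8 to 10 h for the controls, and the titles were followed here. Neither of these can be told apart from KA at 8 h, and both enter the difference of changes. None of the 10 genes lies on a sex chromosome.

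The third arrays of the 4 groups stood apart from the rest: their deviations from the group means correlated with each other at 0.401 to 0.526, and their background was 4.10 to 4.27 against 4.30 to 4.68 on the other arrays. Counts of calls are therefore also given without them. A log2 change of 1 doubles a level, and a gene was called at an adjusted p under 0.05 in limma. At 8 h the genes split into those that rose after KA and a larger set that did not pass the test. Hspa5 and Xbp1, of the ER arm, rose 2.20-fold and 2.10-fold, Atf4 rose 1.78-fold and its feedback partner Ppp1r15a rose 1.39-fold. These 4 of 10 were called higher, against 7.92% of all genes tested, and without the third arrays 4 were called as well. Among all genes 17.5% were called in either direction. On 6 of the 10 genes every KA array lay above every control array, which held for 14.8% of all genes. All 10 changes were above 0, with a median of 0.24 on the log2 scale against -0.02 over all genes.

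**Figure D1:**
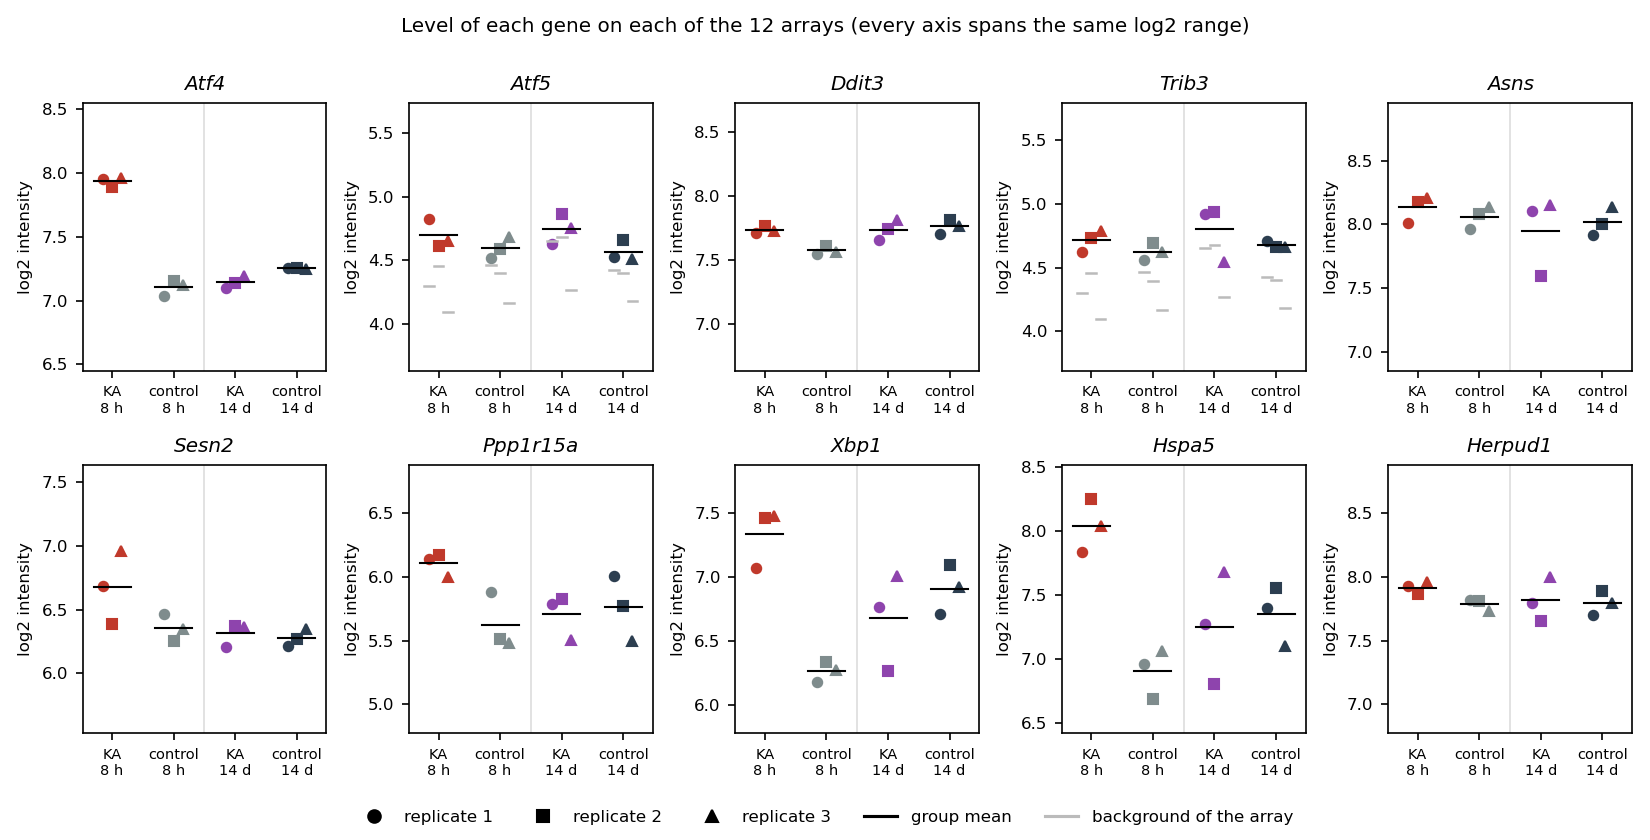
Log2 intensity of the 10 genes on each array, for KA and control at 8 h and at 14 d. Symbols mark the replicate, black lines the group mean and short grey lines the background of the array where it falls within the axis. Atf4, Xbp1, Hspa5 and Ppp1r15a are separated at 8 h, with every KA array above every control array. At 14 d the groups overlap for Xbp1, Hspa5 and Ppp1r15a, with widely spread KA arrays for Xbp1 and Hspa5. For Atf4 the KA arrays lie just under the controls at 14 d.

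Atf4 (chr15:80255184-80257545 in GRCm38.p6, as for all positions) encodes the transcription factor that carries the integrated stress response. Its level was 7.95, 7.89 and 7.96 in KA hippocampi at 8 h, against 7.04, 7.15 and 7.12 in the 8 h controls. The KA arrays were almost alike and stood well clear of the controls. The change was 0.83 ± 0.07 (log2, SE, n = 3 each), with a limma adjusted p of 1.209e-06. A second probe set for Atf4 was dim, between 4.17 and 4.69 on all 12 arrays and under the background of 4 of them, and it gave 0.07 (limma adjusted p 0.7336 over all 32790 probe sets tested). The mean of the 2 probe sets gave a change of 0.45, and the call was kept.

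Xbp1 (chr11:5520641-5525993) encodes a factor that, once its mRNA is spliced by Ire1, turns on genes of protein folding and secretion. Its level was 7.07, 7.46 and 7.48 in KA hippocampi at 8 h, against 6.18, 6.33 and 6.27 in the 8 h controls. The lowest KA array stood above the highest control. The change was 1.07 ± 0.16 (log2, SE, n = 3 each; limma adjusted p 0.0002368). Of its other 3 probe sets, all called in limma over all probe sets, the changes were 0.80, 0.94 and 1.26 on the log2 scale. The one at 0.94 was dim, under the background of 2 of the 3 control arrays at 8 h.

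Hspa5 (chr2:34772090-34776529) encodes BiP, the main Hsp70 chaperone of the ER lumen and a marker of the unfolded protein response. Its level was 7.84, 8.25 and 8.04 in KA hippocampi at 8 h, against 6.96, 6.69 and 7.07 in the 8 h controls. Again the groups did not overlap, though each spread more widely than those of Atf4. The change was 1.14 ± 0.18 (log2, SE, n = 3 each; limma adjusted p 0.0004485). This probe set is of a type that can read more than 1 transcript, and the other Hspa5 probe set gave 1.29 (limma adjusted p 0.0002817 over all probe sets).

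Ppp1r15a (chr7:45522917-45526268) encodes GADD34, which brings protein phosphatase 1 to eIF2 and so reverses the phosphorylation. Its level was 6.14, 6.17 and 6.00 in KA hippocampi at 8 h, against 5.88, 5.51 and 5.48 in the 8 h controls. The margin was narrow, with the first control array close under the third KA array. The change was 0.48 ± 0.13 (log2, SE, n = 3 each; limma adjusted p 0.02201). The call was lost in limma without control replicate 2 (adjusted p 0.09267), control replicate 3 (0.0999), KA replicate 1 (0.07211) or KA replicate 2 (0.0698), all at 8 h. The rises of Atf4, Xbp1 and Hspa5 were called with each of the 12 arrays left out in turn.

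The other 6 genes did not pass the test at 8 h. Sesn2 (chr4:132492804-132510456), a leucine-binding inhibitor of mTORC1 signalling, had 6.68, 6.39 and 6.96 in KA hippocampi, against 6.47, 6.25 and 6.35 in the controls. One KA array lay inside the range of the controls, and the change was 0.32 ± 0.12 (log2, SE, n = 3 each; limma adjusted p 0.07651). With the replicate number as a block the limma adjusted p was 0.02573, and without KA replicate 2 at 8 h it was 0.008737. Its 2 probe sets disagreed, since KA replicate 3 was the highest of the KA arrays on the one (6.96) and the lowest on the other (6.28), which gave a change of 0.12 (limma adjusted p 0.5986 over all probe sets).

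Ddit3 (chr10:127290793-127296291) encodes CHOP, the factor linked to cell death under lasting ER stress. It had 7.71, 7.76 and 7.73 in KA hippocampi at 8 h, against 7.55, 7.61 and 7.57 in the 8 h controls. The KA arrays all lay above the controls by a small step of 0.16 (95% interval 0.00 to 0.32; limma adjusted p 0.1682). Herpud1 (chr8:94386429-94395371), an ER membrane protein of ER-associated degradation, had 7.93, 7.86 and 7.96 in KA hippocampi at 8 h, against 7.81, 7.81 and 7.73 in the 8 h controls. It too was separated without passing the test, at 0.13 (95% interval -0.07 to 0.33; limma adjusted p 0.4098), and its second probe set gave 0.21.

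Asns (chr6:7675165-7693209), the enzyme that makes asparagine and a classical target of Atf4, had 8.01, 8.18 and 8.21 in KA hippocampi at 8 h, against 7.96, 8.08 and 8.13 in the 8 h controls. The groups overlapped, and the change was 0.07 (log2, 95% interval -0.19 to 0.34; limma adjusted p 0.7854). Atf5 (chr7:44812256-44816658), a relative of Atf4 under similar translational control, and Trib3 (chr2:152337425-152344060), a pseudokinase induced by Atf4 and CHOP, lay near background. Atf5 was between 4.62 and 4.83 in KA hippocampi and between 4.52 and 4.68 in the controls at 8 h, and Trib3 between 4.62 and 4.79 in KA hippocampi and between 4.56 and 4.69 in the controls. Their changes of 0.10 and 0.09 (log2) had 95% intervals of -0.09 to 0.29 and -0.12 to 0.31, and limma adjusted p-values of 0.5424 and 0.6238. Both intervals included 0, and how small a change could be detected at this signal with 3 arrays a group was not tested.

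**Figure D2:**
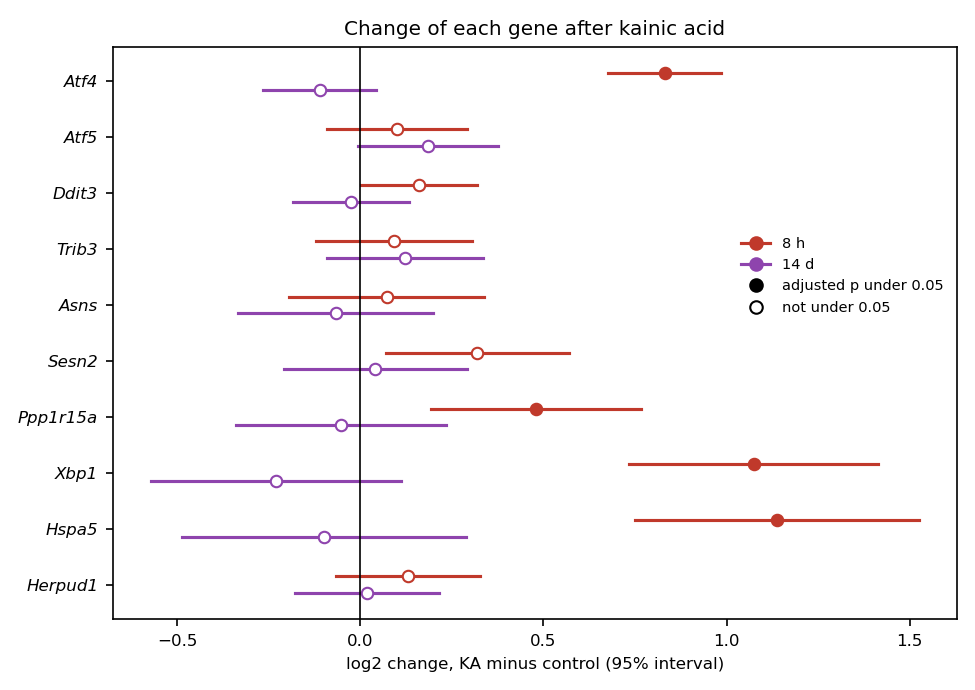
Log2 change of each gene (horizontal axis, KA minus control, with its 95% interval from limma) at 8 h and at 14 d. Filled points passed an adjusted p of 0.05. Hspa5 (1.14), Xbp1 (1.07), Atf4 (0.83) and Ppp1r15a (0.48) lie to the right at 8 h, and at 14 d every interval includes 0.

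At 14 d none of the 10 genes was called in limma (without the third arrays 0 were called), against 2.56% of all genes called. None had an unadjusted limma p under 0.05, against 1745 of the 13853 genes tested. The changes were between -0.23 (Xbp1) and 0.18 (Atf5) on the log2 scale, 4 above 0 and 6 below, with a median of -0.04 against -0.01 over all genes. Atf4 was at 7.10, 7.14 and 7.19 in KA hippocampi at 14 d, against 7.26, 7.26 and 7.25 in the 14 d controls. Its KA arrays all lay just under the controls, by 0.11 (log2, 95% interval -0.26 to 0.04; limma adjusted p 0.6066), and it was 1 of 10 genes whose groups did not overlap, against 16.5% of all genes. A fall of Atf4 larger than 0.26 lies outside that interval.

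Xbp1 was at 6.76, 6.26 and 7.01 in KA hippocampi at 14 d, against 6.71, 7.09 and 6.92 in the 14 d controls. Hspa5 was at 7.28, 6.80 and 7.68 in KA hippocampi at 14 d, against 7.40, 7.55 and 7.10 in the 14 d controls. For both genes the KA arrays spread more widely than the controls and overlapped them, with replicate 2 the lowest and replicate 3 the highest. KA replicate 2 at 14 d was the lowest of its group on every one of the 4 Xbp1 and 2 Hspa5 probe sets, and also for Asns (8.11, 7.59 and 8.15 in KA hippocampi against 7.92, 8.00 and 8.13 in controls). The limma adjusted p-values at 14 d were 0.6323 for Xbp1, 0.8959 for Hspa5 and 0.8969 for Asns. The sign of the Hspa5 change at 14 d was not settled, since its other probe set gave 0.06 where the one used gave -0.10.

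**Figure D3:**
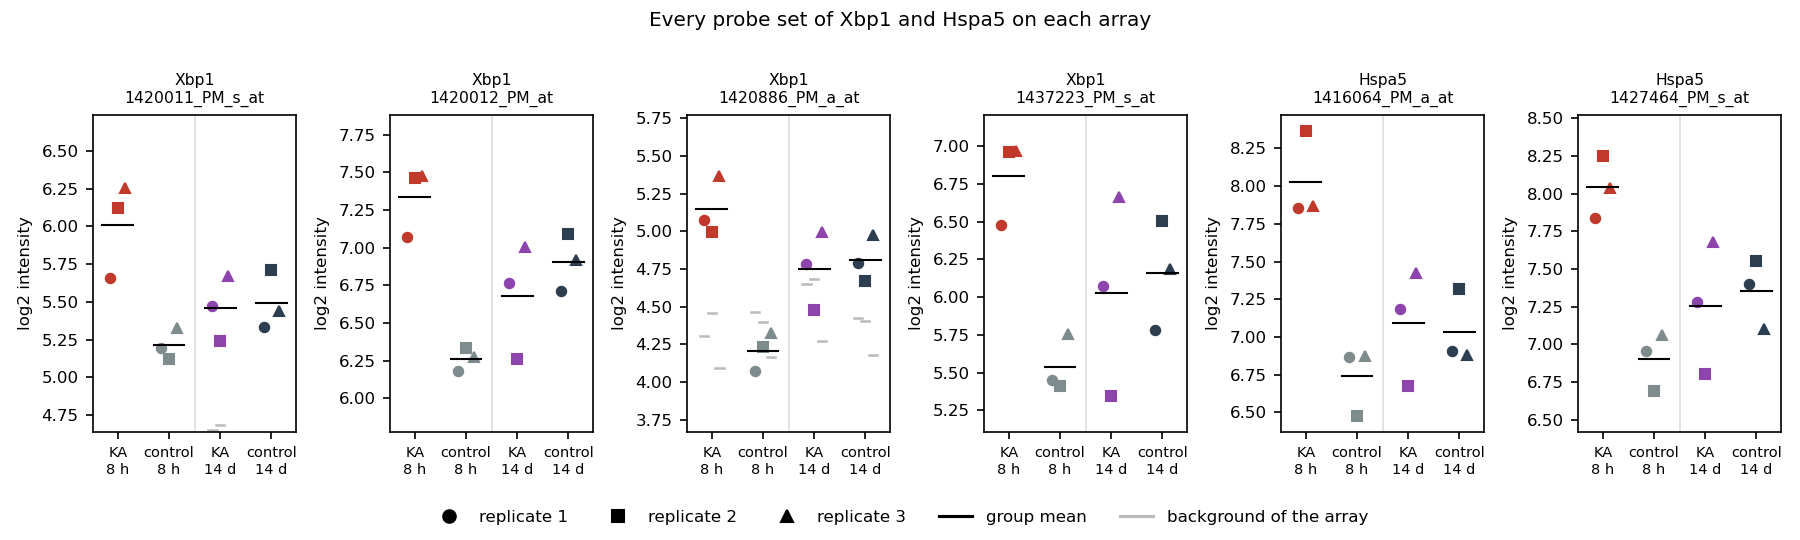
Log2 intensity of the 4 probe sets of Xbp1 and the 2 of Hspa5 on each array, for KA and control at 8 h and at 14 d, with the group mean as a black line and the background of the array in grey where it falls within the axis. On all 6 probe sets the KA arrays at 8 h lie above the 8 h controls, and KA replicate 2 is the lowest of its group at 14 d.

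The change at 14 d minus the change at 8 h tests whether the response to KA differed between the times. It was -0.94 ± 0.10 for Atf4, -1.30 ± 0.23 for Xbp1 and -1.24 ± 0.26 for Hspa5 (log2, SE, 3 arrays in each group), with limma adjusted p-values of 4.072e-05, 0.002514 and 0.009228. These 3 of 10 were called lower, against 3.06% of all genes. The same count, 3, was called without the third arrays, and the 3 genes kept the call with each array left out in turn. The mean of the 2 Atf4 probe sets gave -0.48, which was called as well. For Ppp1r15a the difference was -0.53 (limma adjusted p 0.1336). The other 6 genes had differences between -0.28 (Sesn2) and 0.08 (Atf5), none of them called.

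The controls themselves were not level in time. In the 14 d controls Xbp1 was at 6.71, 7.09 and 6.92, against 6.18, 6.33 and 6.27 in the 8 h controls, which was 1.56-fold higher (log2 0.65 ± 0.16, SE, n = 3 each; limma adjusted p 0.05304). It just missed the threshold, and passed it under several other settings. Of its other probe sets, 2 gave 0.28 and 0.62 (log2, limma adjusted p 0.4436 and 0.2922 over all probe sets). The dim one gave 0.60 and was called (limma adjusted p 0.03741 over all probe sets). It was under background on 2 of the 3 control arrays at 8 h, which limits the size of this difference. Hspa5 had 7.40, 7.55 and 7.10 in the 14 d controls, against 6.96, 6.69 and 7.07 in the 8 h controls (0.45; limma adjusted p 0.2558). The other Hspa5 probe set gave 0.30 (log2, limma adjusted p 0.5523 over all probe sets). The 14 d controls lay wholly above the 8 h controls for Xbp1, Hspa5, Ddit3 (0.19) and Atf4 (0.15), 4 of 10 genes against 15.3% of all genes. No gene of the 10 was called in limma, against 1.8% of all genes called in either direction and 1.12% called higher. An unadjusted limma p under 0.05 was reached by 3 of the 10 and by 2044 of the 13853 genes tested. For Xbp1 the KA arrays at 8 h (7.07 to 7.48) overlapped the 14 d controls (6.71 to 7.09), whereas for Hspa5 they lay above them (7.84 to 8.25 against 7.10 to 7.55).

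Among genes outside the 10, the profiles most like those of the 4 genes called at 8 h were sought. The measure was the root mean square difference of centred log2 values over the 12 arrays. The 10 genes were left out of this search, so a nearer profile among them would not be named. Atf4 was followed most closely by Prkar2a (0.0793) and Ciapin1 (0.0848), whose 8 h changes were 0.73 and 0.70 (log2). For Xbp1 they were Spry4 (0.196) and Ina (0.198), for Hspa5 Fndc3b (0.168) and Rheb (0.176), and for Ppp1r15a Tspan9 (0.109) and Id1 (0.119). The distances of Xbp1 and Hspa5 were larger than those of Atf4, as were their own SDs over the arrays (0.456 and 0.494 against 0.354). This is a description over shared arrays and was not tested.

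The other genes of the 2 responses were taken as 9 lists of 143 genes, of which 122 were tested. At 8 h, 27 of 122 rose and 5 fell after KA, 26.2% against 17.5% of all genes, and their median change was 0.13 (log2). Of the 32 calls, 22 held with each array left out in turn, and without the third arrays 31 genes were called and 6 of the 32 calls were lost (Eif2s2, Mbtps1, Creb3l2, Os9, Nploc4 and Bcl2). With the mean of a gene's probe sets 6 were lost as well (Eif2s2, Dnajc3, Gpt2, Derl2, Os9 and Sec62). The lists are described in the order of the pathway. They are short, and their shares of called genes were not tested against that of all genes.

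On the eIF2 list 3 of 10 genes rose and none fell at 8 h, 30% against 17.5% of all genes. The list does not hold Eif2s3y, the Y-linked gene of an eIF2 subunit, which was lower (-1.39 on the log2 scale, limma adjusted p 0.001008). As stated above, the sex-linked genes differed between the groups at 8 h. Ppp1r15b, the constitutive partner of phosphatase 1 for eIF2, rose 1.42-fold (limma adjusted p 0.0006182), Eif2s2, the beta subunit of eIF2, rose 1.30-fold and Dnajc3, an inhibitor of the eIF2 kinases, rose 1.26-fold. The calls of Eif2s2 and Dnajc3 were lost in limma with 3 and 9 of the 12 arrays left out in turn (adjusted p up to 0.0949 without KA replicate 3 and 0.196 without KA replicate 2 at 8 h). No kinase passed the test: Eif2ak1, which responds to haem shortage, had 7.40 ± 0.07 in KA hippocampi against 7.59 ± 0.10 in controls at 8 h (mean log2 ± SD, n = 3 each; limma adjusted p 0.1477). Eif2ak3, or Perk, changed by 0.15 and Eif2ak4 by 0.07 (log2, limma adjusted p 0.3907 and 0.6214). Eif2ak2 exceeded background on none of the arrays at 8 h, so a change of it could not be judged. Among ER sensors and their proteases, 1 of 8 rose and 1 fell, 25% against 17.5% of all genes. They were Creb3l2, a membrane-bound bZIP factor (1.38-fold higher), and Mbtps1, the protease that first cuts Atf6 (-0.39 on the log2 scale). The call of Creb3l2 was lost with 3 of the 12 arrays left out in turn (limma adjusted p up to 0.0941, without KA replicate 3 at 8 h).

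In a list of bZIP factors and regulators, some of them known Atf4 targets, 5 of 17 rose and none fell at 8 h, 29.4% against 17.5% of all genes. Whether Atf4 induced any of them here was not tested. Atf3, an immediate stress-induced repressor, was at 8.31 ± 0.32 in KA hippocampi, against 4.49 ± 0.11 in controls at 8 h (mean log2 ± SD, n = 3 each), at least 14.1-fold higher (limma adjusted p 1.227e-09). The bound is used because 1 of the 3 control arrays did not exceed its background. Trib1 and Trib2, relatives of Trib3, rose 3.28-fold and 2.11-fold, where Trib3 itself had a change of 0.09 (log2). Chac1, which breaks down glutathione and is induced by Atf4, rose 1.64-fold (limma adjusted p 0.000204), and Cebpd, a C/EBP factor, rose 1.45-fold.

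Of 17 genes of amino acid synthesis and transport, 4 rose and 1 fell, 29.4% against 17.5% of all genes. The median of the list was -0.03 (log2). Slc3a2, the heavy chain of several amino acid transporters, rose 1.58-fold, Slc38a2, a neutral amino acid carrier, 1.40-fold, Cbs, of cysteine synthesis, 1.38-fold and Gpt2, the mitochondrial alanine transaminase, 1.28-fold. Pck2, the mitochondrial form of phosphoenolpyruvate carboxykinase, fell by 0.72 on the log2 scale (limma adjusted p 0.002769). Of 9 aminoacyl-tRNA synthetases 2 were called, 22.2% against 17.5% of all genes. Eprs rose 1.89-fold (limma adjusted p 5.934e-05) and Iars 1.41-fold. Wars had 7.59 ± 0.12 in KA hippocampi against 7.87 ± 0.21 in controls at 8 h (mean log2 ± SD, n = 3 each, limma adjusted p 0.129). Wars passed as lower by 0.27 (log2) with the replicate number as a block (limma adjusted p 0.04347) and with quantile scaling (0.04296). Most members of both lists, as Asns, did not pass the test.

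Of 19 ER chaperones and folding enzymes, 6 rose and none fell at 8 h, 31.6% against 17.5% of all genes. The list median was 0.23 (log2). Sdf2l1, a BiP cochaperone, rose 1.86-fold (limma adjusted p 0.0001228), Creld2 1.66-fold, Manf, a secreted protein that binds BiP, 1.53-fold, Pdia6, a disulphide isomerase, 1.44-fold, Ero1b, an oxidase of protein disulphide isomerase, 1.42-fold and P4hb, protein disulphide isomerase itself, 1.30-fold. All 6 kept their call with each array left out in turn. The 14 d controls were also higher than the 8 h controls for 4 of these 19, Pdia6 (1.52-fold), Sdf2l1 (1.52-fold), Manf (1.56-fold) and Creld2 (1.68-fold). Their limma adjusted p-values were 0.006645, 0.01807, 0.02561 and 0.01337, and the calls of Sdf2l1, Manf and Creld2 were lost with 4, 6 and 3 of the 12 arrays left out in turn (adjusted p up to 0.0982, 0.122 and 0.0803). Over all lists 6 of 122 genes were higher in the 14 d controls, 4.92% against 1.12% of all genes, the others being Derl2 and Bcl2. The call of Derl2 was lost with 8 arrays left out in turn (limma adjusted p up to 0.233) and with the mean of its probe sets, where the difference was 0.087 (log2; limma adjusted p 0.8809), and that of Bcl2 with 5 arrays left out in turn (adjusted p up to 0.12).

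In ER-associated degradation 2 of 16 rose and 2 fell at 8 h, 25% against 17.5% of all genes. Derl2, a channel component, and Nploc4, a cofactor of the ATPase Vcp, rose 1.30-fold and 1.22-fold, while Rnf5, a membrane ubiquitin ligase, and Os9, a lectin that recognises misfolded glycoproteins, fell by 0.41 and 0.30 on the log2 scale. Of these calls, Os9 was lost in limma without KA replicate 3 at 8 h (adjusted p 0.0578), and Derl2, Nploc4 and Rnf5 with 3, 4 and 2 arrays left out in turn (adjusted p up to 0.094, 0.112 and 0.071). With the mean of its probe sets the change of Derl2 was 0.19 (log2; limma adjusted p 0.4336). In the translocon and ER to Golgi list 2 of 19 rose and 1 fell, 15.8% of the list against 17.5% of all genes. Sec61a1, the channel subunit, rose 1.33-fold, and Kdelr1, a retrieval receptor, fell by 0.28 (log2), and these calls were lost with 2 and 4 arrays left out in turn (limma adjusted p up to 0.053 and 0.0907). Sec62, an auxiliary translocon subunit, rose 1.44-fold, but with probe sets of the types that can read several transcripts left out its change was -0.19 (log2).

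Of 7 tested genes of ER stress cell death, Pmaip1 and Bcl2 passed the test at 8 h, 28.6% against 17.5% of all genes. Pmaip1, the proapoptotic Noxa, was at 4.28 ± 0.13 in KA hippocampi against 3.80 ± 0.08 in controls (mean log2 ± SD, n = 3 each; limma adjusted p 0.001095), but no control array and only 2 of 3 KA arrays exceeded background, so no fold is given. Bcl2, which protects from apoptosis, rose 1.24-fold, and its call was lost with 4 arrays left out in turn (limma adjusted p up to 0.0958, without control replicate 1 at 8 h). Bcl2l11, the proapoptotic Bim, had 4.74 ± 0.10 in KA hippocampi against 4.47 ± 0.11 in controls at 8 h (limma adjusted p 0.1608), and Bbc3, or Puma, 5.95 ± 0.10 in KA hippocampi against 6.10 ± 0.04 in controls (limma adjusted p 0.4198).

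At 14 d, 2 of 122 genes rose and none fell (1.64% against 2.56% of all genes). Edem2, a mannosidase-like protein of ER-associated degradation, rose 1.28-fold (limma adjusted p 0.03037), a call lost with 5 arrays left out in turn (adjusted p up to 0.146, without KA replicate 1 at 14 d), and Sec62 rose 1.45-fold (limma adjusted p 0.008106), with 0.14 (log2, limma adjusted p 0.7619) where the multiple-transcript probe sets were left out. Atf3 was at 5.20 ± 0.39 in KA hippocampi, against 4.55 ± 0.15 in controls at 14 d (mean log2 ± SD, n = 3 each; limma adjusted p 0.06125). Without the third arrays the calls of Edem2 and Sec62 were lost, and 1 other gene of the lists, Nupr1, passed at 14 d (limma adjusted p 0.007202). The change at 14 d was below that at 8 h for 12 of 122 genes and above it for none: Ppp1r15b, Atf3, Chac1, Trib1, Slc3a2, Slc38a2, Eprs, Iars, Pdia6, Sdf2l1, Creld2 and Ero1b. These 12 are 9.84% of the genes, against 3.06% of all genes called lower. The calls of Creld2, Pdia6, Chac1, Iars, Slc38a2 and Sdf2l1 were lost with 8, 6, 5, 5, 2 and 1 arrays left out in turn (limma adjusted p up to 0.0993), and that of Eprs without the multiple-transcript probe sets (0.2119).

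**Figure D4:**
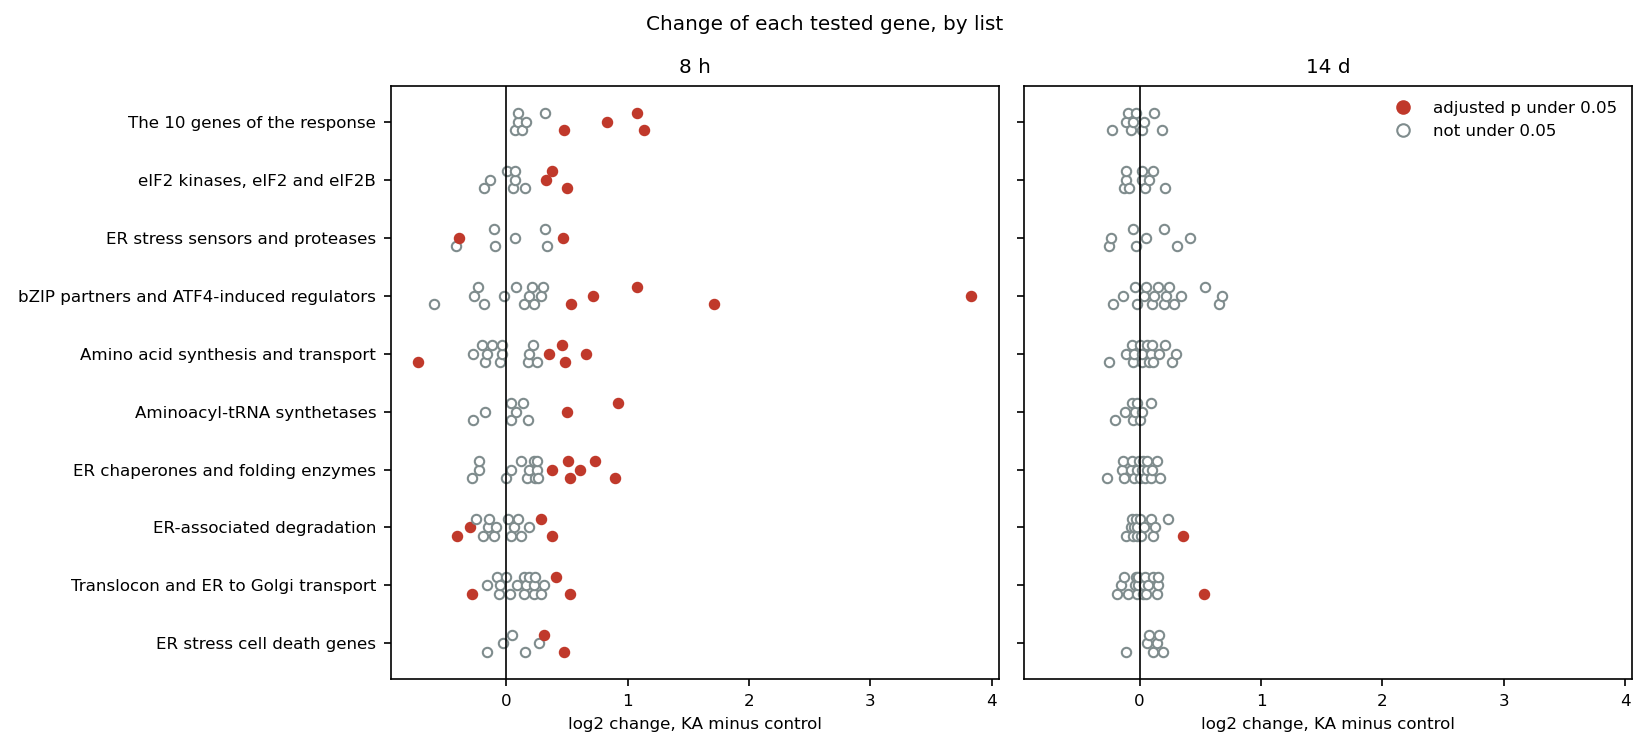
Log2 change (horizontal axis, KA minus control) of every tested gene, 1 point each, for the 10 genes and the 9 pathway lists, at 8 h (left) and at 14 d (right). Filled points passed an adjusted p of 0.05. At 8 h filled points lie mainly to the right, most of all for Atf3 at 3.83, and at 14 d 2 points are filled.

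Values of the whole arrays and of other cell types stand beside these results. Of all genes 17.5% were called in either direction at 8 h and 2.56% at 14 d. Array medians were 4.90 to 4.95, and arrays of a group correlated at r = 0.989 to 0.997 over probe sets. All 9 markers of hippocampal principal cells, Prox1, Wfs1 and Calb1 among them, were above background on all 12 arrays. Their summed level (log2) was 11.3 to 11.5 in KA hippocampi against 11.7 to 11.8 in controls at 8 h, with 3 of 9 lower, and 11.2 to 11.6 in KA hippocampi against 11.6 to 11.8 in controls at 14 d, with 2 of 9 lower. At 8 h 8 of the 9 changes were below 0. The largest was that of Dsp, at 7.15 in KA hippocampi against 9.11 in controls (-1.97, log2). Prox1 was above 0 (0.35) and Wfs1 near 0 (-0.03). The sum adds unlogged levels, and the part of Dsp in its fall was not tested. Astrocyte markers summed to 12.7 to 12.9 in KA hippocampi against 12.5 to 12.6 in controls at 8 h (1 of 7 higher, Gfap at 2.03-fold), and to 13.1 to 13.4 in KA hippocampi against 12.6 to 12.8 in controls at 14 d (4 of 7 higher). Microglia and macrophage markers summed to 9.70 to 9.88 in KA hippocampi against 9.64 to 9.83 in controls at 8 h (2 of 8 higher, 3 lower), and to 11.4 to 11.6 in KA hippocampi against 9.99 to 10.2 in controls at 14 d (7 of 8 higher). Endothelial and mural cell markers summed to 9.72 to 9.81 in KA hippocampi against 9.49 to 9.64 in controls at 8 h without overlap, with 2 of 7 higher, Cdh5 at 1.97-fold and Pecam1 at 1.66-fold, and to 9.65 to 9.96 in KA hippocampi against 9.71 to 9.79 in controls at 14 d, with none called. Their difference of changes was lower, as for Atf4, Xbp1 and Hspa5, at -0.70 for Cdh5 and -0.66 for Pecam1 (log2, limma adjusted p 0.02472 and 0.00902). These 2 of 7 endothelial and mural markers are 28.6% of their list, against 3.06% of all genes called lower, and a link with the 10 genes was not tested. The difference of changes was also lower for 1 of 6 interneuron markers, Sst (-0.67, log2, limma adjusted p 0.01072). Of the 9 principal cell markers it was lower for 1, Fibcd1 (-0.62), and higher for 1, Dsp (1.26, limma adjusted p 0.004848). It was higher for 7 of 8 microglia and macrophage markers and for 2 of 7 astrocyte markers, Gfap (0.73) and Aqp4 (0.72). Olig1 of the oligodendrocyte precursors was higher as well (0.52). Oligodendrocyte markers summed to 11.8 to 12.0 in KA hippocampi against 11.9 to 12.1 in controls at 8 h (2 of 5 lower, Mog at -0.69 and Cnp at -0.29 on the log2 scale), and to 11.9 to 12.1 in KA hippocampi against 12.0 to 12.2 in controls at 14 d (none called). Of 2 tested precursor markers Olig1 was lower at 8 h (-0.50, log2). Neuron markers summed to 13.3 to 13.4 in both groups at 8 h (2 of 7 lower). At 14 d they summed to 13.1 to 13.4 in KA hippocampi against 13.3 to 13.5 in controls (1 of 7 lower, Syt1 at -0.34, log2). Interneuron markers summed to 11.4 to 11.7 in KA hippocampi against 11.5 to 11.7 in controls at 8 h. Of these 6, Sst was higher at 8 h (0.72, log2) and Pvalb lower (-0.55). At 14 d their sum was 11.3 to 11.7 in KA hippocampi against 11.6 in controls, and Pvalb was lower (-0.71). Choroid plexus markers spread from 9.86 to 12.4 in KA hippocampi at 8 h, against 12.0 to 12.3 in the 8 h controls, and none of the 6 was called. In bulk tissue, fewer cells of a type and less RNA per cell cannot be told apart, and the part of these markers in the changes was not tested.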

How the data were processed

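Ipsilateral hippocampal RNA (5 ng, amplified over 22 cycles; 8 µg of cDNA labelled, per the labels' protocols) was measured on 12 arrays. The deposited values were taken as log2 intensities, made by the authors with RMA and affy per the submitters' processing notes, which give no version. No scale is stated in the table, and its range of 2.63 to 13.2 and near-equal medians are those of RMA output. Of 45037 probe sets, 28898 carried 1 gene symbol. Each of 17097 genes was represented by its brightest probe set on average, and genes above the array's 30th percentile (4.08 to 4.15) on at least 3 arrays were tested. Background was each array's mean of 8 GC-rich nonspecific probe sets (4.10 to 4.68), a choice made after values were seen, and "at least" folds set a dimmer array at or under it to its background.

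The model, 1 mean for each group over all 12 arrays with 8 residual degrees of freedom, was fitted with limma 3.58.1 and eBayes (R 4.3.3), with two-sided tests adjusted by Benjamini-Hochberg over the 13853 genes. The number of arrays limits the precision. Members, lists, motifs and tests were chosen with earlier results of these data known. Named beyond the 10 genes were, per list, up to 4 genes by p at 8 h and 2 at 14 d. The 2 nearest profiles outside the 10 genes, the eIF2 kinases, and called genes chosen after their values were seen were named as well. Some genes under the rule are left out. Gene symbols came from the probe annotation, with 10 listed symbols matched as synonyms; genes it does not name were not analysed here. Promoters and coordinates are RefSeq's (GRCm38.p6).

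Replicate numbers are shared between groups, and no label says that they pair arrays. At 8 h the deviations of same-numbered arrays correlated at 0.155, 0.138 and 0.413. Arrays 1 and 2 with different numbers correlated as much (0.138 and 0.163), so only the third arrays stood apart. The results reported use no block, and the replicate block is an alternative fit. At 14 d same-numbered arrays correlated at 0.164, 0.0684 and 0.463. No pair of arrays was identical. Alternatives covered the filter, probe set choice, scaling, the fit, the block, the threshold and each array left out; leaving out the third arrays or X and Y genes and a block on the number across times were chosen after seeing the data.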

Additional observations from a re-analysis of the deposited data

Results flagged for a closer look

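For 3 of the 10 genes the response to KA differed between the times by a test of the difference itself, the change at 14 d minus the change at 8 h in limma. For Atf4 the difference was -0.94 on the log2 scale, from a change of -0.11 at 14 d and 0.83 at 8 h. For Xbp1 it was -1.30, from -0.23 at 14 d and 1.07 at 8 h, and for Hspa5 it was -1.24, from -0.10 at 14 d and 1.14 at 8 h. For all 3 genes every KA array at 8 h lay above every 8 h control, and the groups at 14 d overlapped for Xbp1 and Hspa5. For Xbp1 the mean was 6.68 in KA hippocampi and 6.91 in controls at 14 d, and 7.34 in KA hippocampi and 6.26 in controls at 8 h, so the controls differed between the times as well.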

How the results depend on the processing

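The count of members called at 8 h (4) lay between 3 and 5 over 28 settings, and between 3 and 4 with 1 array left out. It was 5 with array weights and with either replicate block, where Sesn2 passed as well. For the difference of changes (3) it was 4 with the same 3 settings and 3 with each array left out. Pathway genes called at 8 h (32) ranged from 22 to 42 over the settings and from 25 to 38 with 1 array left out. At 14 d, 1 member (Trib3, 0.22, limma adjusted p 0.03703) passed with array weights, a fit that did not fully converge. Pathway genes called at 14 d (2) were 1 with multiple-transcript probe sets left out, with only the groups compared, at an adjusted p of 0.01 and without the third arrays, 20 with array weights, 6 with the replicate block within each time, 7 with it across times and 1 to 5 with 1 array left out (5 without KA replicate 2 at 14 d). Between controls, the members called were 1 (Xbp1) with the median filter, cyclic loess, quantile scaling, only the groups compared, trend and robust, or the replicate block across times, 2 with array weights, and 0 to 1 with 1 array left out; without KA replicate 2 or 3 at 14 d, Xbp1 had adjusted p-values of 0.01233 and 0.0181.

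The planned replicate block takes the number within each time, and so gives no comparison between controls. It changed the call of 2 members, Sesn2 at 8 h and Ppp1r15a for the difference of changes (-0.53, limma adjusted p 0.02174). Of the named or called pathway genes it added Creb3l1, Mbtps2, Ssr1 and Wars at 8 h, and Atf3 (0.66, limma adjusted p 0.0109), Nupr1 and Creb3l2 at 14 d. A block on the number across all 4 groups, chosen after seeing the data, changed the same 2 member calls, and between controls Xbp1 passed (0.65, limma adjusted p 0.01917). Control arrays of the same number correlated across the times at 0.163, 0.0363 and 0.401, so that only the third stood apart. The numbers are not shown to pair arrays there, at 14 d or at 8 h.

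Of the called values only Sec62 at 8 h turned sign, to -0.19 without multiple-transcript probe sets, where it passed no test. The other turned values passed no test as reported. With array weights these were at 14 d Asns (0.078), Sesn2 (-0.037) and Herpud1 (-0.0275), for the difference Atf5 (-0.083) and Asns (0.0396), and between controls Atf5 (0.0063). Without the third arrays they were Herpud1 at 14 d (-0.074), Atf5 for the difference (-0.012), and Atf5 (0.037) and Herpud1 (-0.0174) between controls. Other turned values were Hspa5 at 14 d (0.058) without multiple-transcript probe sets, Sec63 at 14 d (0.0080) with mean probe sets, Ddit3 at 14 d (0.0174) with cyclic loess, and Herpud1 between controls (-0.0168 with cyclic loess, -0.0126 with quantile scaling). With 1 array left out the range crossed 0 at 14 d for Asns (-0.17 to 0.11), Ddit3 (-0.063 to 0.0128), Herpud1 (-0.075 to 0.10), Hspa5 (-0.31 to 0.13) and Ppp1r15a (-0.18 to 0.071), for the difference for Trib3 (-0.0405 to 0.16) and Asns (-0.24 to 0.0387), and between controls for Asns (-0.10 to 0.0074), Atf5 (-0.082 to 0.0081) and Herpud1 (-0.0374 to 0.059). The cause was not tested.

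Genes called in all were 2420 at 8 h, 354 at 14 d, 764 for the difference and 249 between controls. Over all probe sets, which are more tests, they were 4843, 551, 1478 and 445, and at an adjusted p of 0.01 1352, 170, 346 and 64. Array weights gave 2099 at 14 d, 2168 for the difference and 1336 between controls, the replicate block 576 at 14 d and 1178 for the difference within times and 599, 1214 and, between controls, 570 across times, and only the groups compared 543 between controls. With 1 array left out the counts ran from 196 to 457 at 14 d, from 508 to 902 for the difference and from 86 to 421 between controls.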
